A study of Mus musculus with 6 samples.

Results

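Transcripts of 10 genes of the NF-kappaB system were examined in mouse cardiomyocytes after doxorubicin. They are 4 subunit genes (Nfkb1, Nfkb2, Rela and Relb), 3 IkappaB genes (Nfkbia, Nfkbie and Nfkbiz) and 3 genes of ubiquitin-dependent regulation (Tnfaip3, Tnip1 and Birc3). The genes were taken by name from a table of 24972 gene rows, and all 10 were present and passed the filter on low values that left 12477 genes for testing. The vehicle group was 3 MX1gfp mice injected intraperitoneally with 100 microlitres of phosphate-buffered saline. The doxorubicin group was 3 MX1gfp mice injected by the same route and volume with 25 mg of doxorubicin per kg body weight. All 6 mice carried this interferon reporter, a green fluorescent protein allele of Mx1, and the labels give neither age nor sex. RNA came from ventricular myocytes 48 h after the injection, prepared by collagenase digestion and gravity settling, which enriches for cardiomyocytes without sorting them.

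NF-kappaB transcription factors are dimers of Rel-family proteins that IkappaB proteins hold inactive in the cytoplasm. Signals from tumour necrosis factor, interleukin-1 and Toll-like receptors, and also DNA damage, activate the IkappaB kinase, which marks IkappaB for degradation and frees the dimers to enter the nucleus. Several inhibitors are themselves target genes, so that activation refills its own brakes. In the heart the pathway is known for responses to cytokines and ischaemia and has been linked both to survival and to inflammation. Doxorubicin is an anthracycline cancer drug that breaks DNA through topoisomerase II and can injure heart muscle.

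The promoters of the feedback genes are shown because these genes are known for binding sites of the factor they restrain. RefSeq (GRCm38.p6) promoter windows of 300 bases, from 250 before to 50 after a start site, were at hand for 7 of the 10 genes: Nfkb2, Rela, Nfkbia, Nfkbie, Tnfaip3, Birc3 and Tnip1. Each was searched on both strands for the 10-base kappaB consensus, and overlapping matches were counted separately. The lines below run 5′ to 3′ on the gene's own strand, with matches in capitals, from 130 bases before the start site to its last upstream base. The Tnip1 line ends 17 bases before the start site, where an annotated span of the gene begins. They cover chr12:55492648-55492777 on the minus strand (Nfkbia), chr17:45555570-45555699 on the plus strand (Nfkbie), chr10:19015411-19015540 on the minus strand (Tnfaip3) and chr11:54962957-54963070 on the minus strand (Tnip1).
Nfkbia: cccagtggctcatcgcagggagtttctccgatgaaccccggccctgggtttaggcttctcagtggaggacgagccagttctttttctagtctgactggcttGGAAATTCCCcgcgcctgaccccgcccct
Nfkbie: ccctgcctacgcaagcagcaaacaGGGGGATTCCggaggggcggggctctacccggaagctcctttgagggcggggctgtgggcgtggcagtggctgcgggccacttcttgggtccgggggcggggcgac
Tnfaip3: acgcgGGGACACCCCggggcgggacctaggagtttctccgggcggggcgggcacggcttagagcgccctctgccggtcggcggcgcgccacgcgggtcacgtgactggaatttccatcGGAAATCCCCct
Tnip1: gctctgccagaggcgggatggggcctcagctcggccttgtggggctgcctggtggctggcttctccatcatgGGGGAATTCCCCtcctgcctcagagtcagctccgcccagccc

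The consensus was found in 5 of the 7 genes with a window, and in 1388 of all 27025 genes with a window (5.14%). Among tested genes with a window it was found in 628 of 9805 (6.4%). In Nfkbia it was read on the opposite strand as GGGAATTTCC, from position -29 to -20. In Nfkbie the match was GGGGGATTCC at -106 to -97, and Tnfaip3 held GGGACACCCC at -125 to -116 and GGGGATTTCC on the opposite strand at -12 to -3. The 4 matches of Tnip1 overlapped in a single palindromic stretch between -58 and -47. Nfkb2, with 3 annotated start sites, held GGGAATTCCC at -39 to -30 and GGGGCTTTCC at -11 to -2 of the first. No match lay in the windows of Rela and Birc3. The looser pattern GGGNNNNNCC, which contains the consensus, was present in all 7 genes in 53.5% of all genes with a window and in 72.1% of tested genes with one. A match describes letters in a window and not binding.

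The libraries were not alike in depth or makeup. Normalized counts summed to between 7217949 and 7500386 in the vehicle libraries and between 5410780 and 6498373 in the doxorubicin libraries, and the reads behind them were estimated at 7700000 to 11400000 and 3660000 to 6180000. Depth and treatment cannot be told apart. Doxorubicin replicate 1 lay nearest the vehicle libraries, with Spearman correlations across genes of 0.977 to 0.982, against 0.860 to 0.914 for replicates 2 and 3. Results are therefore given with and without it. It was singled out from the same values that are tested, and leaving it out favours larger differences. Adjusted p values without it are therefore descriptions and add no support. Levels of Xist and of the Y-linked Ddx3y divided the libraries into a class with Xist (vehicle replicate 3 and doxorubicin replicates 1 and 3) and a class with Y-linked transcripts (the other three), and within-class differences are given as values without a test. The 10 cardiomyocyte markers, which include Myh6, Tnnt2, Tnni3 and Ryr2, were abundant in every library, at a summed 700062 to 871296 in vehicle and 648031, 208314 and 179918 in doxorubicin replicates 1 to 3.

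Across all genes, limma called 0 of 12477 higher (0%) and 0 lower (0%) after doxorubicin at a Benjamini-Hochberg adjusted p under 0.05. None of the 10 NF-kappaB genes (0) was called. The smallest adjusted p of any gene was 0.0859. Genes with unlike unadjusted p values shared it, such as Tnfaip3 (limma p 0.00296) and Birc3 (limma p 0.0110), so it does not rank them. At an unadjusted p under 0.05, 2081 of all genes were higher (16.7%) and 2404 lower (19.3%), and 5 of the 10 were higher and 0 lower: Rela, Nfkbia, Nfkbie, Tnfaip3 and Birc3. In 4 of these 5, all but Nfkbia, every doxorubicin library lay above every vehicle library. Such separation was found upward in 19.2% and downward in 22.6% of all genes tested. All 10 genes had a higher mean in the doxorubicin group, the log2 fold change running from 0.06 to 1.20 with a median of 0.46, beside a median of -0.0046 over all genes tested, of which 49.6% were positive. A log2 fold change here is the mean log2(value + 1) of the doxorubicin libraries less that of the vehicle libraries. Without doxorubicin replicate 1, set aside after its likeness to vehicle was seen, limma called 19.4% of genes higher and 21.8% lower. The same 5 members were then higher with an adjusted p under 0.05, and 0 were lower. Of the members not called in that fit, Nfkb2 was at 0.46 (limma adjusted p 0.0858) and Relb at 0.25 (limma adjusted p 0.3545). Nfkbiz was at 0.17 (limma adjusted p 0.740), Tnip1 at 0.17 (limma adjusted p 0.387) and Nfkb1 at 0.043 (limma adjusted p 0.818).

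**Figure D1:**
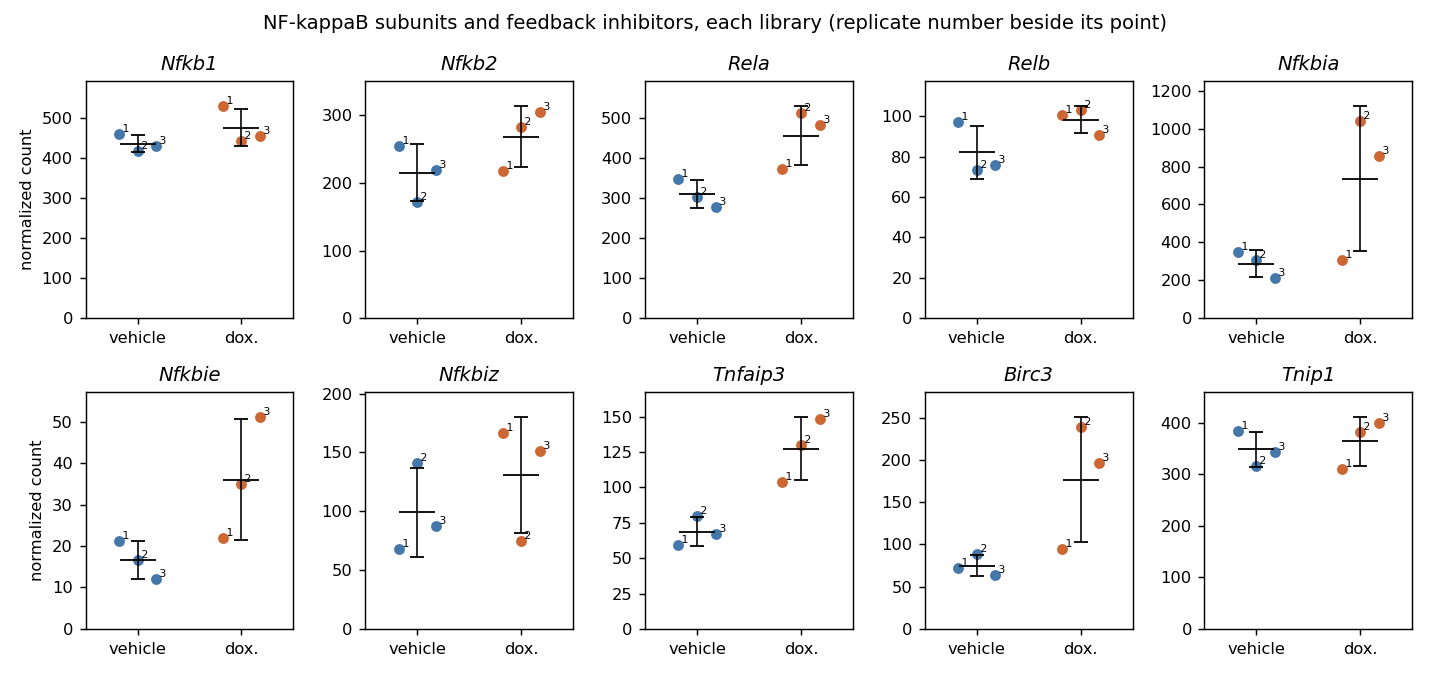
Normalized count (vertical axes, from 0) of each of the 10 genes in every library, with vehicle in blue, doxorubicin in orange and the replicate number beside each point. Black bars give the mean and SD of 3 libraries. Rela, Nfkbie, Tnfaip3 and Birc3 are the panels without overlap between groups, and in Nfkbia doxorubicin replicate 1 stays at 308, inside the vehicle range.

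Among the subunits, Rela differed most between the group means. In doxorubicin replicate 1 it did not lead, at 0.27 above the vehicle mean on the log2 scale beside 0.30 for Relb and 0.28 for Nfkb1. Rela (GRCm38.p6 chromosome 19, 5637442 to 5648134, from RefSeq as for all positions given here) encodes p65, the main activating subunit of the canonical pathway. Its normalized counts in replicates 1 to 3 were 349.6, 304 and 279 with vehicle and 374, 514 and 483 with doxorubicin. Each doxorubicin library was above each vehicle library, with replicate 1 just above. The group means were 311 ± 35.9 and 457 ± 73.3 (SD, n = 3 in each group), a 1.47-fold ratio, and the log2 fold change was 0.55 (SE 0.17, adjusted p 0.0869 by limma). Without doxorubicin replicate 1, Rela rose by 0.68 on the log2 scale (limma adjusted p 0.00934). The difference was 0.61 within the Xist class and 0.65 within the Y class.

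The precursor gene of the canonical partner showed little difference. Nfkb1 (chromosome 3, 135584655 to 135691969) encodes p105, which is processed to p50 and also acts as an inhibitor. It measured 459, 417 and 430.4 normalized counts in vehicle and 528, 441 and 455 in doxorubicin replicates 1 to 3. The highest value was in doxorubicin replicate 1, and the groups overlapped. The log2 fold change was 0.12 (95% interval -0.20 to 0.45, limma adjusted p 0.548). With the deposited scaling, a difference of the size seen in Rela, 0.55, lay outside its interval. After scaling to equal totals, Nfkb1 was at 0.42 (limma adjusted p 0.0824) and Rela at 0.85.

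The noncanonical pair, in which p100 from Nfkb2 is processed to p52 and partners RelB, had groups that overlapped and did not pass the test. Nfkb2 (chromosome 19, 46300994 to 46312400) measured 255, 172 and 219 in vehicle and 218, 282 and 305 in doxorubicin replicates 1 to 3. Doxorubicin replicates 2 and 3 were above the vehicle range and replicate 1 was inside it, for a log2 fold change of 0.32 (95% interval -0.15 to 0.79, limma adjusted p 0.282). Relb (chromosome 7, 19606217 to 19629438) measured 97.3, 73.2 and 75.9 in vehicle and 101, 103 and 90.9 in doxorubicin. Vehicle replicate 1 exceeded doxorubicin replicate 3, and the log2 fold change was 0.27 (95% interval -0.16 to 0.69, limma adjusted p 0.315). Both intervals include Rela's 0.55. Nfkb1 and Nfkb2 overlap other annotated genes (Gm46827, and Psd and 4833438C02Rik), as Tnip1 does Gm12230, and because the use of strand is not given in the sources used here, reads of such pairs cannot be told apart.

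Of the IkappaB genes, Nfkbia had the largest log2 fold change of the 10 with all libraries and the widest spread between doxorubicin libraries. That rank did not hold in 4 of the 6 fits that left out a library, where Birc3 (without vehicle replicate 2, vehicle replicate 3 or doxorubicin replicate 3) or Nfkbie (without doxorubicin replicate 2) was higher. Nfkbia (chromosome 12, 55489409 to 55492647) encodes IkappaB alpha, the classical inhibitor that is degraded on activation and resynthesized as a target gene, and its promoter match is printed above. It measured 348, 306 and 209.6 normalized counts in vehicle and 308, 1041 and 858 in doxorubicin replicates 1 to 3. Replicates 2 and 3 were far above every vehicle library, while replicate 1 was below vehicle replicate 1. The means were 288 ± 71.0 and 736 ± 382, a 2.56-fold ratio, and the log2 fold change of 1.20 (95% interval 0.17 to 2.24) had a limma adjusted p of 0.105. Without doxorubicin replicate 1, Nfkbia rose by 1.74 (SE 0.23, limma adjusted p 0.000951). The within-class differences were 1.29 (Xist) and 1.67 (Y).

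Nfkbie (chromosome 17, 45555700 to 45563169) encodes IkappaB epsilon, a slower feedback inhibitor. It was the lowest of the 10 genes, at 21.3, 16.5 and 12.1 in vehicle and 22.0, 34.9 and 51.1 in doxorubicin replicates 1 to 3. The groups did not overlap, although doxorubicin replicate 1 exceeded the highest vehicle library only slightly. These values rest on an estimated 13.9 to 34.6 reads per library, so counting error is large for this gene. The log2 fold change was 1.02 (SE 0.39, limma adjusted p 0.112), and 1.33 without doxorubicin replicate 1 (limma adjusted p 0.0207). Nfkbiz (chromosome 16, 55811375 to 55838954) encodes IkappaB zeta, a nuclear IkappaB that assists transcription of some targets. It did not follow the other 2: its values were 68.3, 141 and 87.5 in vehicle and 166, 74.6 and 151 in doxorubicin replicates 1 to 3. Here doxorubicin replicates 1 and 3 were the highest and replicate 2 lay near the bottom of the vehicle range. Its log2 fold change was 0.38 (95% interval -0.49 to 1.25, limma adjusted p 0.480), at 0.85 within the Xist class and -0.39 within the Y class.

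Of the ubiquitin regulators, Tnfaip3 and Birc3 were higher in every doxorubicin library and Tnip1 was not. Tnfaip3 (chromosome 10, 19000910 to 19015410) encodes A20, a ubiquitin-editing enzyme that ends signalling from tumour necrosis factor and Toll-like receptors. It measured 59.3, 79.7 and 66.8 in vehicle and 104, 130 and 148 in doxorubicin replicates 1 to 3. All 3 doxorubicin libraries, replicate 1 included, were above the vehicle range. The means were 68.6 ± 10.3 and 127 ± 22.2, a 1.86-fold ratio, and the log2 fold change was 0.88 (SE 0.20, limma adjusted p 0.0859). It was 0.89 within the Xist class and 0.91 within the Y class, and 1.02 without doxorubicin replicate 1 (limma adjusted p 0.00535).

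Birc3 (chromosome 9, 7847468 to 7873205) encodes a ubiquitin ligase of the inhibitor-of-apoptosis family that acts at the tumour necrosis factor receptor and restrains the noncanonical pathway. Its values were 71.6, 88.3 and 64.2 in vehicle and 94.5, 239 and 196 in doxorubicin replicates 1 to 3. The groups did not overlap, with replicate 1 close to the highest vehicle library. The means were 74.7 ± 12.3 and 176 ± 74.1, a 2.36-fold ratio, and the log2 fold change was 1.14 (SE 0.34, limma adjusted p 0.0859), or 1.54 without doxorubicin replicate 1 (limma adjusted p 0.000964). Birc2, its neighbour and close relative, measured 229, 268 and 229 in vehicle and 192, 346 and 282 in doxorubicin (0.14, limma adjusted p 0.685). How reads that match both genes were counted is not stated, so the split between them is uncertain.

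Tnip1 (chromosome 11, 54910787 to 54962956) encodes a ubiquitin-binding partner of A20. It measured 384, 316 and 344 in vehicle and 310.2, 381 and 399.6 in doxorubicin. The groups overlapped throughout, and the log2 fold change of 0.06 (95% interval -0.31 to 0.43, limma adjusted p 0.810) left out a difference of the size of Tnfaip3, 0.88.

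**Figure D2:**
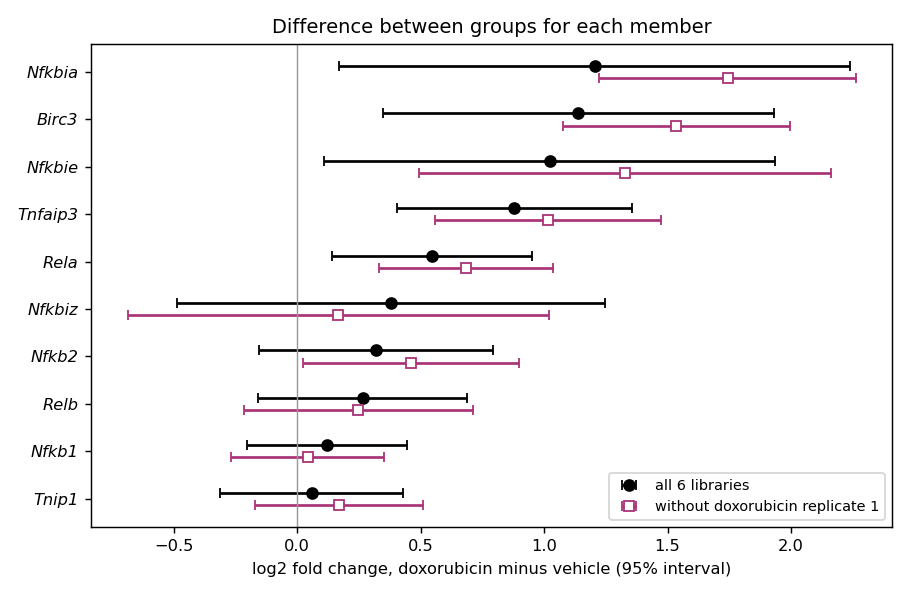
Log2 fold change of each gene (horizontal axis, doxorubicin minus vehicle, from values with 1 added), with its 95% interval from limma, for all 6 libraries (black circles) and without doxorubicin replicate 1 (open squares). With all libraries the intervals of 5 genes lie above 0, from Nfkbia at 1.20 to Rela at 0.55, and without replicate 1 Nfkbia moves to 1.74 and Birc3 to 1.54.

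The 10 genes did not share a single order among the doxorubicin libraries. Relative to the vehicle mean on the log2 scale, replicate 1 was at 0.13 for Nfkbia, 0.35 for Birc3 and 0.60 for Tnfaip3. Replicate 2 was at 1.88, 1.68 and 0.92 for the same genes, and replicate 3 at 1.60, 1.39 and 1.11. The highest of all 6 libraries was doxorubicin replicate 2 for 4 genes (Rela, Relb, Nfkbia and Birc3), replicate 3 for 4 (Nfkb2, Nfkbie, Tnfaip3 and Tnip1) and replicate 1 for 2 (Nfkb1 and Nfkbiz). A vehicle library was highest for 0.

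**Figure D3:**
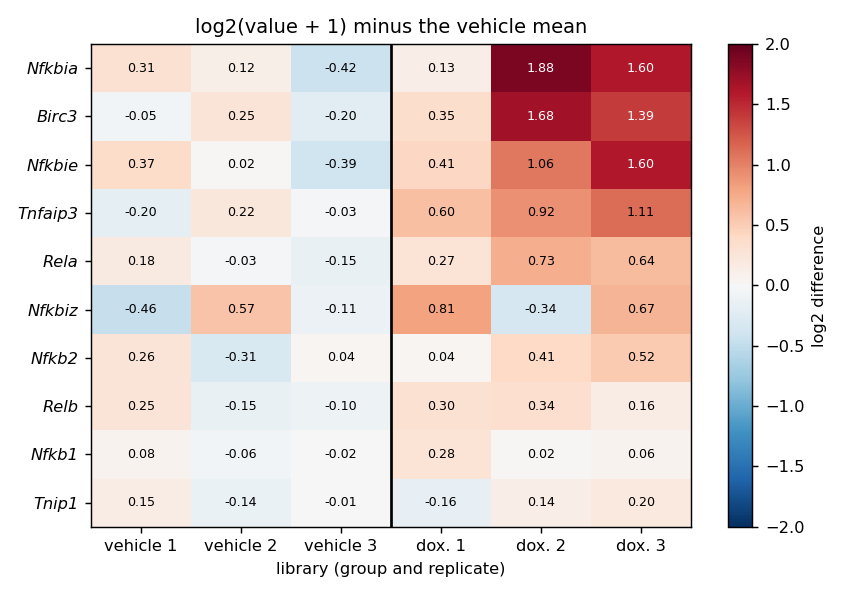
Difference of each library from the vehicle mean on the log2(value + 1) scale, for the 10 genes (rows) and 6 libraries (columns), from blue (lower) to red (higher). Nfkbia and Birc3 are near the vehicle level in doxorubicin replicate 1 (0.13 and 0.35) and high in replicates 2 and 3, whereas Tnfaip3 is above it in all 3 (0.60, 0.92 and 1.11).

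Levels of different genes were compared only per kilobase of transcript, using the longest GENCODE M21 coding transcript with a RefSeq entry. In vehicle libraries Nfkbia was highest at 182 ± 45.0 normalized counts per kilobase (SD, n = 3). Tnip1 (117 ± 11.6), Rela (114 ± 13.2) and Nfkb1 (106 ± 5.18) followed, each with a range that overlapped that of the next. Nfkb2 (68.6 ± 13.3) and Relb (37.2 ± 5.98) came below them without overlap. Birc3 (28.0 ± 4.63), Nfkbiz (24.1 ± 9.19) and Tnfaip3 (15.5 ± 2.34) overlapped in sequence, and Nfkbie was lowest at 6.84 ± 1.87. After doxorubicin Nfkbia was still highest, at 466 ± 242 per kilobase, and Rela was second at 168 ± 27.0, above Tnip1 at 122 ± 15.9 without overlap of their libraries.

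The wider pathway was described by lists chosen with earlier results of these data known. The counts of separated genes below stand beside 19.2% upward and 22.6% downward over all genes tested. Counts called without doxorubicin replicate 1 stand beside 19.4% of all genes called higher and 21.8% lower in that fit. Of 8 receptors, 7 had a positive log2 fold change and 4 were separated upward and 1 downward, with a median of 0.82. Il1r1, the interleukin-1 receptor, measured 179, 162 and 130 in vehicle and 251, 413 and 394 in doxorubicin replicates 1 to 3 (log2 fold change 1.14, limma adjusted p 0.0859). Tnfrsf1a, the main tumour necrosis factor receptor, went from a mean of 470.2 ± 68.8 to 943 ± 225 (0.98). The exception was Tnfrsf12a, the receptor for TWEAK, at 473, 397 and 337 in vehicle against 176, 239 and 245 in doxorubicin (-0.87). Without doxorubicin replicate 1, 6 receptors were called higher and 1 lower.

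Between receptor and IkappaB kinase the differences were mixed. Of 17 adaptors, ubiquitin ligases and kinases, 9 were positive and 8 negative with a median of 0.14, and 5 were separated upward and 1 downward. The kinases Ripk1 and Irak4 and the adaptor Traf5 had log2 fold changes of 0.83, 1.21 and 0.92. Of the 9 genes of IkappaB kinases and other Rel and IkappaB proteins, 8 were tested, 4 positive and 4 negative, with a median of 0.21, and 2 were separated upward and 1 downward. Ikbkb, the canonical IkappaB kinase subunit, measured 195, 201 and 181 in vehicle and 256, 271 and 342 in doxorubicin, and its groups did not overlap (0.58). Bcl3, a nuclear IkappaB, had a log2 fold change of 1.10, and Map3k8, a kinase bound by p105, 1.03 with groups that overlapped. Without doxorubicin replicate 1, 4 of the 17 were called higher and 2 lower, and 4 of the 8 higher and 1 lower.

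Of 10 other brakes of the pathway 6 were positive, with a median of 0.10. The 2 genes separated upward, a share near that over all genes, with 0 downward, were Tnip2, a relative of Tnip1, at 1.08, and the ubiquitin ligase Itch at 0.45. The RNase gene Zc3h12a had 0.79 with groups that overlapped. Among 25 textbook target genes, 23 were tested, 19 were positive and 4 negative, with a median of 1.11, and 11 were separated upward and 2 downward. The adhesion molecule gene Icam1 measured 182, 161 and 125 in vehicle and 227, 956 and 684 in doxorubicin replicates 1 to 3 (1.78), the same order of doxorubicin libraries as Nfkbia. Vcam1, also an adhesion molecule gene, had 1.11. The caspase-8 inhibitor gene Cflar, at 345, 369 and 349 against 531, 644 and 775, had 0.86 and the transcription factor gene Irf1 0.96. Sod2, the mitochondrial superoxide dismutase, was separated downward, from 5447 ± 86.4 to 2845 ± 1188 (-1.01). Without doxorubicin replicate 1, 4 of the 10 brakes were called higher and 0 lower, and 16 of 24 targets higher and 2 lower.

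**Figure D4:**
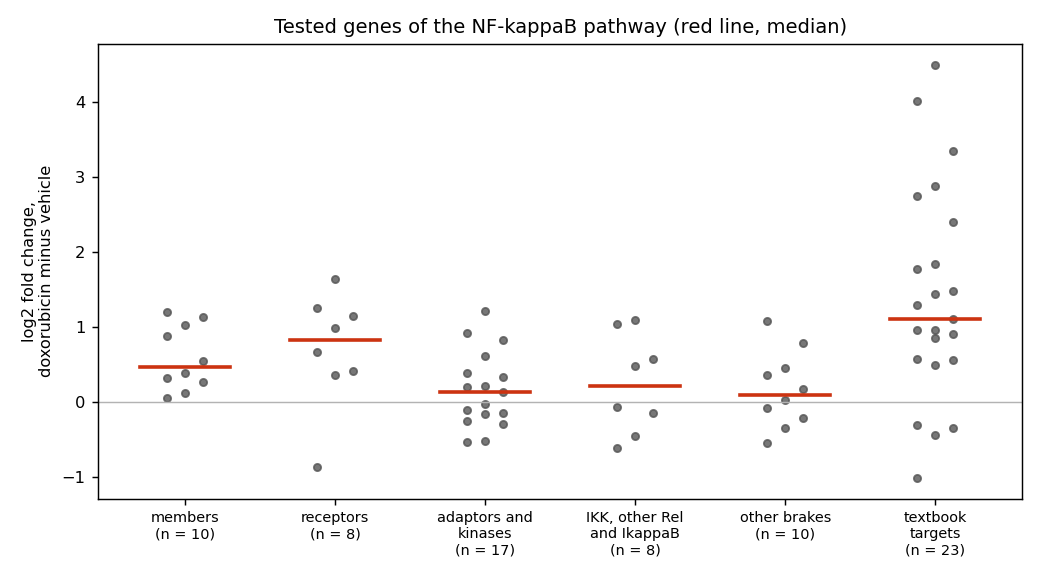
Log2 fold change (vertical axis, doxorubicin minus vehicle) of the tested genes of 6 lists, each point 1 gene and each red line the list's median. The medians run from 0.10 (other brakes) and 0.14 (adaptors and kinases) through 0.46 (the 10 members) and 0.82 (receptors) to 1.11 (textbook targets).

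Marker sums of macrophages, neutrophils and endothelial cells were higher in every doxorubicin library than in every vehicle library. The fibroblast sum was so only with 1 gene, Dcn, included. The sums of lymphocytes and mural cells were not separated in this way. Summed macrophage markers (10 genes, all 10 with a positive log2 fold change) were 2583 to 2791 in vehicle and 4238, 7421 and 15615 in doxorubicin replicates 1 to 3. Summed neutrophil markers (8 genes, all 8 higher on average) were 11.2 to 21.7 in vehicle and 61.3, 578 and 423. Endothelial markers (8 genes, 7 higher) were 15856 to 22270 and 30312, 29593 and 38341, and fibroblast markers (8 genes, 7 higher) 6236 to 8274 and 8639, 22816 and 16406. The fibroblast sums of replicates 2 and 3 came mostly from Dcn, at 3113, 18072 and 11326 in doxorubicin replicates 1 to 3. With Dcn left out, the fibroblast sums of the 2 groups overlapped, and doxorubicin replicate 1 was highest. Of the 8 fibroblast genes, 3 were separated upward and 0 downward, beside 19.2% and 22.6% of all genes tested. The 8 lymphocyte markers, of which 0 passed the filter on low values, summed to 17.7 to 35.4 in vehicle. In doxorubicin replicates 1 to 3 they summed to 70.2, 10.8 and 14.9. The 6 mural markers, 3 of them higher, ranged from 6611 to 11656 in vehicle and from 8255 to 11766 in doxorubicin. No marker of these lists (0) was at 0 in every library. Nfkbia, Rela, Birc3 and Relb were highest in doxorubicin replicate 2, as were the neutrophil sum and, only with Dcn included, the fibroblast sum. Tnfaip3, Nfkbie, Nfkb2 and Tnip1 were highest in replicate 3, as were the macrophage, endothelial and mural sums. The mural sum differed little between replicates 2 and 3 (11214 and 11766). Nfkb1 and Nfkbiz were highest in replicate 1, as was the lymphocyte sum. The part of these cells in the NF-kappaB differences was not tested. In bulk RNA, fewer cells of a type and less RNA per cell cannot be told apart.

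**Figure D5:**
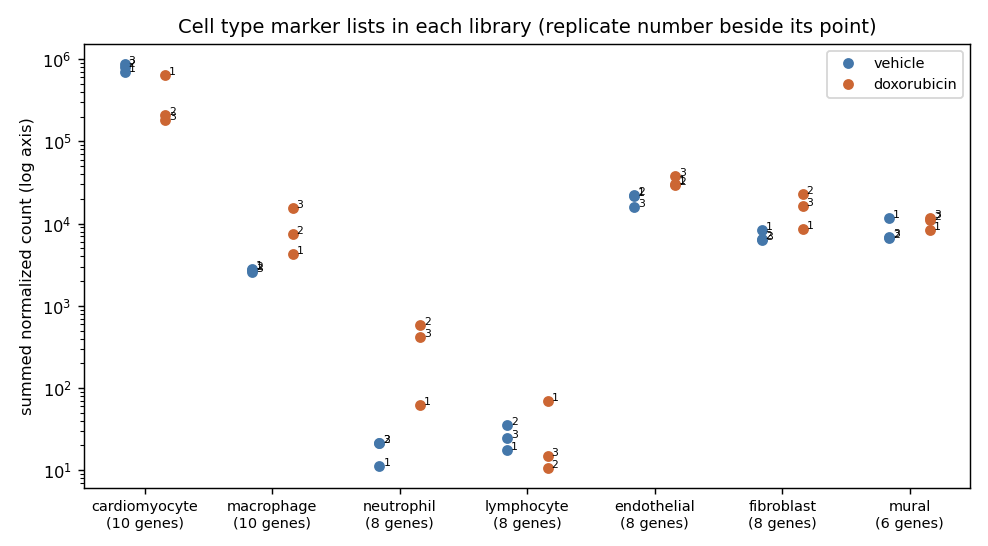
Summed normalized count of each marker list (vertical log axis) in each library, vehicle in blue and doxorubicin in orange, with the replicate number beside the point. Cardiomyocyte markers are lowest in doxorubicin replicates 2 and 3 (208314 and 179918), and macrophage markers are highest in replicate 3 (15615).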

How the data were processed

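RNA was sequenced from 3 vehicle and 3 doxorubicin libraries, grouped and numbered by their titles. Per the series' design text and the submitters' processing notes, reads were aligned with STAR 2.6.1a to mm10 with RefSeq genes; Salmon is also named, with no role. The deposited unit is signal (normalized, non-negative counts per gene), with normalization method, filters and use of strand not given in the sources used here. Depth was estimated from the most common low value, taken as 1 read; 80.4% to 92.5% of low values lay within 0.1 step of a whole multiple, so whole reads were not recovered and no count test was used.

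Values were tested as log2(value + 1) with limma 3.58.1 in R 4.3.3 (mean-dependent prior variance), keeping genes whose mean over the 6 libraries reached 10, two-sided, with Benjamini-Hochberg adjustment over all 12477 genes and a threshold of 0.05. With 3 libraries against 3, an exact permutation test cannot give a p below 0.1. The design text gives 3 mice per group. On simulated data for this comparison (12477 genes) the fit recovered 83 of 100 genes changed 2-fold and 98 of 100 changed 4-fold, with 9 false calls. The simulation gave all libraries the same noise and had no doxorubicin library close to vehicle. It therefore does not show how often the fit finds such changes in the real libraries. The members and lists were chosen with earlier results of these data known. All members are named; from each pathway list the 3 genes with the smallest unadjusted p are named, and 5 from the targets. Alternatives were 2 pseudocounts, 2 filters, 2 scalings, no mean trend, library weights, a replicate block, a covariate for the Xist or Y class, and leaving out each library. Figures used matplotlib 3.10.9 in Python 3.11.15.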

Additional observations from a re-analysis of the deposited data

How the results depend on the processing

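Across 16 alternative settings (15 for Nfkbie, which the minimum mean of 50 drops), Nfkb1, Nfkb2, Rela, Relb, Nfkbia, Nfkbie, Tnfaip3 and Birc3 kept a positive log2 fold change. Nfkbiz changed sign with library weights (-0.088) and Tnip1 without vehicle replicate 2 (-0.0088) or doxorubicin replicate 3 (-0.013), with a range of -0.013 to 0.169 over the libraries left out; the cause was not tested. Leaving out 1 library also moved Nfkb1 from 0.12 to 0.043 (doxorubicin replicate 1), Nfkb2 from 0.32 to 0.17 (vehicle replicate 2), and Nfkbiz from 0.38 to 0.15 (vehicle replicate 1), 0.17 (doxorubicin replicate 1), 0.24 (doxorubicin replicate 3), 0.67 (vehicle replicate 2) or 0.74 (doxorubicin replicate 2). Library weights, which gave doxorubicin replicate 1 a weight of 0.277, called 1954 genes higher and 2318 lower, with 5 members higher. Leaving out single libraries gave 0 to 2421 genes higher, 0 to 2715 lower and 0 to 5 members higher; doxorubicin replicate 1 was the library whose removal gave the upper end of each, the members then being Rela, Nfkbia, Nfkbie, Tnfaip3 and Birc3. Every other setting called 0 members. Scaling to equal totals moved the median of all genes to 0.297 and that of the members to 0.764, with each of the 10 above the shift, and the medians of adaptors, IkappaB kinases and other brakes to 0.44, 0.51 and 0.40. List medians near 0 also moved when a library was left out. The adaptor median was -0.023 without doxorubicin replicate 2, 0.019 without doxorubicin replicate 3, 0.083 without vehicle replicate 1 and 0.23 without doxorubicin replicate 1. That of other brakes was -0.023 without doxorubicin replicate 2, 0.020 without vehicle replicate 1, 0.18 without doxorubicin replicate 1 and 0.16 without vehicle replicate 3, and that of IkappaB kinases 0.11 without doxorubicin replicate 3 and 0.33 without doxorubicin replicate 1. Quantile normalization gave 0.21 for other brakes, above the 0.13 of adaptors.

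Same-numbered libraries did not deviate together (correlations of -0.128, 0.033 and -0.093). With 3 libraries per group these correlations cannot exclude a pairing by number, and the design text names no block. A replicate block gave 0 genes higher and 0 lower, with an adjusted p of 0.115 for Tnfaip3. Every doxorubicin library was shallower than every vehicle library, and depth limits Nfkbie most.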

Other observations

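The 25 textbook targets did not share a single pattern over the doxorubicin libraries. All 3 doxorubicin libraries were above every vehicle library in 11, replicates 2 and 3 alone in 7, replicates 1 and 3 alone in 2, replicate 2 alone in 1, and no doxorubicin library was in 4. Over all genes tested, 19.2% were separated upward, and the other patterns were not counted there. Il6, in replicates 1 and 3 alone, and Ptx3, in replicates 2 and 3 alone, were too low to be tested. Il6 reached at most 4.13 normalized counts. The genes that follow were chosen after their values were seen. Saa3, an acute-phase gene, measured 0, 15.2 and 0 normalized counts in vehicle and 1.04, 17.9 and 4841 in doxorubicin replicates 1 to 3. The chemokine gene Ccl5 was at 1.25, 5.67 and 1.75 in vehicle and 5.22, 8.45 and 734 after doxorubicin. The cytokine gene Il1b was at 23.0, 12.5 and 9.70 in vehicle and 33.5, 30.1 and 979 after doxorubicin. Its antagonist Il1rn was at 0.647, 2.91 and 0 in vehicle and 2.11, 10.9 and 740.4 after doxorubicin. In these 4 genes replicate 3 was far above the other libraries, while Il1b was above vehicle in all 3 doxorubicin libraries and the other three genes in replicates 2 and 3. The survival gene Bcl2l1 measured 357, 1669 and 1585, and Lcn2, which encodes a siderophore-binding protein, 12.6, 311 and 191, so both were far higher in replicates 2 and 3 than in replicate 1, as Nfkbia was (308, 1041 and 858). The neutrophil marker S100a8, at 14.5, 130 and 107, had the same order as Lcn2, and the macrophage marker Lyz2, at 1382, 2083 and 6811, was highest in replicate 3.

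Ratios within a library do not depend on scaling between libraries, and 5 were computed, chosen after the values were seen. The log2 ratio of Birc3 to its neighbour and close relative Birc2 was -1.68, -1.60 and -1.84 in vehicle and -1.02, -0.53 and -0.52 in doxorubicin, a difference of 1.01 with all 3 doxorubicin libraries above all vehicle libraries (exact two-sided permutation p 0.1, the smallest this design allows, 0.375 adjusted over the 5). That of Nfkbia to Rela was -0.0059, 0.0075 and -0.41 in vehicle and -0.28, 1.02 and 0.83 in doxorubicin, a difference of 0.66 with groups that overlapped (exact permutation p 0.3, adjusted 0.375). The ratio of Rela to Nfkb1 differed by 0.43 and that of Nfkbia to Nfkb1 by 1.09 (exact permutation p 0.3, adjusted 0.375, for each). The ratio of Nfkb2 to Nfkb1 differed by 0.20 (exact permutation p 0.5, adjusted 0.5). Groups overlapped in each of these, with doxorubicin replicate 1 inside the vehicle range.

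The kappaB consensus was also counted in the windows of the pathway lists. It was present in 9 of 21 textbook targets, 3 of 7 genes of the list of IkappaB kinases, other Rel and IkappaB proteins, 3 of 7 other brakes, 2 of 6 receptors and 2 of 14 adaptors. Among tested genes with a window, 628 held it, with a median log2 fold change of 0.084, 26.1% separated upward and 19.6% downward. The 9177 without it had a median of -0.012, with 18.5% separated upward and 23.3% downward. These shares are descriptions without a test, and the genes are not independent.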
